A study of Mus musculus with 30 samples.

Results

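The transcriptional response to Atoh1 was compared between 2 mouse cell lines, mouse embryonic stem cells (mESC) and immortalized multipotent otic progenitor (iMOP) cells. The mESC were the established ES-D3 line, and iMOP cells, which grow from a single clone, were made from embryonic cochlear progenitors positive for Sox2 by brief c-Myc expression. Both lines received 1 of 4 plasmids driven by the EF-1 alpha promoter. The control vectors were pT, which makes tdTomato red fluorescent protein alone, and p183T, which adds the miR-183 family, a cluster of 3 sensory microRNAs, from an intron. The Atoh1 vectors were pAT, which makes Myc-tagged Atoh1 with tdTomato, and p183AT, which makes Atoh1, tdTomato and the miR-183 family. Fluorescent cells were sorted 48 h after transfection and each group was measured on 3 Affymetrix Mouse Gene 2.0 ST arrays described as distinct biological samples. The comparison used the 24 transfected arrays of 30 in the series, and the 6 untransfected arrays gave starting levels only. In each line the pooled Atoh1 effect was the mean of the 6 pAT and p183AT arrays minus the mean of the 6 pT and p183T arrays. The difference between lines was the iMOP effect minus the mESC effect. All 25341 transcript clusters annotated with a gene symbol were tested, of 41345 on the array.

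Atoh1 is a proneural transcription factor of the basic helix-loop-helix (bHLH) class and is required for the hair cells of the inner ear and for cerebellar granule neurons. It binds E-boxes, CANNTG, as a dimer with a ubiquitous E protein. Notch ligands, through which a cell signals to its neighbours, are known targets of proneural factors. Id proteins lack a DNA-binding region, hold E proteins and so oppose bHLH factors. The same factor is known to act on different genes in different cells, which is the question the comparison of the lines addressed.

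Promoters are shown for 3 genes that rose with Atoh1 in both lines (Dll1, Dll3 and Cdc25b) and for 2 that moved in opposite directions (Id2 and Rab25), so that the presence or absence of an Atoh1-type E-box in each can be read directly. Each RefSeq window (GRCm38.p6) runs 5′ to 3′ on the gene's strand from 250 bases before the start to 50 after it, and capitals mark the E-box forms searched on both strands. One form was CAGCTG, which reads the same on both strands. The other form was CAGATG, which reads as CATCTG on the opposite strand. Both are forms of CANNTG.
Dll1, chr17:15376883-15377182, minus strand: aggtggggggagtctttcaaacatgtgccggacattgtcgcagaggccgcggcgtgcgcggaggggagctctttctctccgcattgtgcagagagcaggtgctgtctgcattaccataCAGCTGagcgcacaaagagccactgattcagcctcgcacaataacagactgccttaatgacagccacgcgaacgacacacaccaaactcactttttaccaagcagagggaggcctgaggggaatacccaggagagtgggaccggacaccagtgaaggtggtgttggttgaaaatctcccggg
Dll3, chr7:28301736-28302035, minus strand: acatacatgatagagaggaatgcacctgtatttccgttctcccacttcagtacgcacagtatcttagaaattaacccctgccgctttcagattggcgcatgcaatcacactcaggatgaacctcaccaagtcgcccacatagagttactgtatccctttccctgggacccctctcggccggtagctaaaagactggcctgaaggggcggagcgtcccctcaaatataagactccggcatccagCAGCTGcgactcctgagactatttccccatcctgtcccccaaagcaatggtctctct
Cdc25b, chr2:131186698-131186997, plus strand: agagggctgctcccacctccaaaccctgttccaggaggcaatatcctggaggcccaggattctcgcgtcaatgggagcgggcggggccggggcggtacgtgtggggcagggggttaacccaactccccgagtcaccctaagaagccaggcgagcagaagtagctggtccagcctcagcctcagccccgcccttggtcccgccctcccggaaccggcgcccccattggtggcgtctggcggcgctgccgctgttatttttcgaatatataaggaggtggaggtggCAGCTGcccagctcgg
Id2, chr12:25096043-25096342, minus strand: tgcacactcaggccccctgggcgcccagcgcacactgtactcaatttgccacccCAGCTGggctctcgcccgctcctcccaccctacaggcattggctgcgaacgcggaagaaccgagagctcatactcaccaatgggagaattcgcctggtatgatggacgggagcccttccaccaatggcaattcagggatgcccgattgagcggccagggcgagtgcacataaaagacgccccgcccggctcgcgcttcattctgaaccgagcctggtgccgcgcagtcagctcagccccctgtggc
Rab25, chr3:88548230-88548529, minus strand: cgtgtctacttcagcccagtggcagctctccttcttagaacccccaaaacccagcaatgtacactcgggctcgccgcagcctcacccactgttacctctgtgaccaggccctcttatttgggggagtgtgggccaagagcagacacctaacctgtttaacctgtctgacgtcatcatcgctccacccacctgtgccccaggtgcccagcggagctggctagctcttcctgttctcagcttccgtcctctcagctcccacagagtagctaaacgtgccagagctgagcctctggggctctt
The Dll1, Dll3, Cdc25b and Id2 windows each held 1 CAGCTG, and the Rab25 window held neither form. A second Dll1 window, further into the gene, also held neither. The Id3 window, which is not printed, held neither form and no CANNTG of any kind. One or both forms were present in 30.6% of all 32851 windows of this length, and CAGCTG alone in 16.3%. Among genes called higher in both lines, 14 of 18 had windows, and 26.3% of their 19 windows held one or both and 15.8% held CAGCTG. Among genes called higher in iMOP only with a called difference between lines, 18 of 22 had windows, and 48.3% of their 29 windows held one or both and 37.9% held CAGCTG. For genes called in mESC only with a called difference, these shares were 39.6% and 23.1% of 134 windows where the gene was higher, and 27.1% and 25% of 48 windows where it was lower. Among the 5 genes called in opposite directions, 4 had windows, and 25% of these 4 windows held one or both and 25% held CAGCTG. These shares were not tested and are descriptions of the letters in short windows.

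Values are robust multi-array average (RMA) log2 signals, so that a difference of 1 is a doubling, and a cluster was called when its limma p-value, adjusted by Benjamini-Hochberg over the 25341 clusters, was under 0.05. Replicates of a group correlated at r from 0.975 to 0.993, and iMOP pT replicate 2 lay farthest from its group mean, by a root mean square of 0.262 log2 units over all clusters against 0.15 to 0.224 for the other 23 arrays. Array medians ranged from 4.83 to 5.14. Of 7 mESC markers, 6 averaged above the dim limit of 5 in untransfected mESC and none did in untransfected iMOP cells. Of 7 otic progenitor markers, 4 did in iMOP cells and 3 in mESC. Of 7 hair cell markers, 1 did in iMOP cells and 2 in mESC. Because lines also differed in transfection reagent, growth conditions and how sorted cells were collected, line and these conditions cannot be told apart. In bulk RNA, fewer cells carrying a transcript and less transcript per cell cannot be told apart either.

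The Atoh1 cluster, which cannot separate vector from endogenous transcript, rose by the same amount in both lines. In mESC the 6 control arrays lay at 4.37 to 5.24 (median 4.87) and the 6 Atoh1 arrays at 5.83 to 6.27 (median 6.09). In iMOP cells the control arrays lay at 5.11 to 5.61 (median 5.41) and the Atoh1 arrays at 6.41 to 7.16 (median 6.44). The groups did not overlap in either line, as for 1.91% of all clusters in the higher direction in mESC and 0.442% in iMOP cells. The log2 change was 1.25 ± 0.12 (SE, n = 6 against 6) in both, with adjusted p = 2.8e-07 and 1.3e-06 by limma. The 2 changes differed by 0.00 ± 0.17. Here and below, the SE of a change rests on a spread per cluster that is shared by the transfected arrays of both lines. It is therefore equal in the lines by construction and does not measure the scatter of either line alone. The Mir183, Mir96 and Mir182 clusters did not pass in either line (adjusted p from 0.37 to 0.77). Both sides of the contrast include a vector with these microRNAs, but their iMOP levels were not equal. Mir182 lay at 7.837 to 8.396 with p183T and 6.828 to 7.206 with p183AT. Mir183 lay at 6.709 to 7.401 and 6.002 to 6.54, and Mir96 at 6.918 to 7.671 and 6.537 to 6.902. In mESC the p183T and p183AT arrays overlapped for each cluster. The part of this imbalance in the Atoh1 effects was not tested.

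More clusters passed the test for an Atoh1 effect in mESC than in iMOP cells. In mESC, 403 clusters were higher (1.59% of all tested) and 268 lower (1.06%), together 2.65%. In iMOP cells, 121 were higher (0.477%) and 59 lower (0.233%), together 0.710%. At an unadjusted p under 0.05 the totals were 3346 and 2533. The iMOP counts depended on single arrays: without p183AT replicate 1 they were 305 higher and 171 lower, without p183AT replicate 2 only 67 were higher, and without pAT replicate 1 only 19 were lower. Fitted on the 12 iMOP arrays alone, 34 were higher and 6 lower. No cluster in either line was called for a dependence of the Atoh1 effect on the presence of the microRNAs (776 and 879 clusters at an unadjusted p under 0.05).

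Clusters called in both lines were few, but most of those called in 1 line did not differ between lines by the test. Of the 827 clusters called in either line, 426 were called in mESC only and 121 in iMOP cells only without a called difference, and a missed threshold does not show that the lines acted alike. Of the 403 called higher in mESC, 18 (4.47%) were also called higher in iMOP cells, which is 14.9% of the 121 called higher there. Of the 268 called lower in mESC, 1 (0.373%) was also called lower in iMOP cells, 1.69% of 59. In all, 19 clusters (0.0750% of those tested) were called in the same direction and 5 (0.0197%) in opposite directions. Of the 121 higher in iMOP cells, 91 (75.2%) had a positive value in mESC, compared with 53.7% of all clusters. Of the 403 higher in mESC, 213 (52.9%) had a positive value in iMOP cells, compared with 48.8% of all. Over the 827 clusters called in either line, the effects correlated at r = 0.099, as a description. The difference between lines was itself called for 300 clusters (1.18%), 98 (0.387%) with the higher effect in iMOP cells and 202 (0.797%) with the higher effect in mESC.

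**Figure D1:**
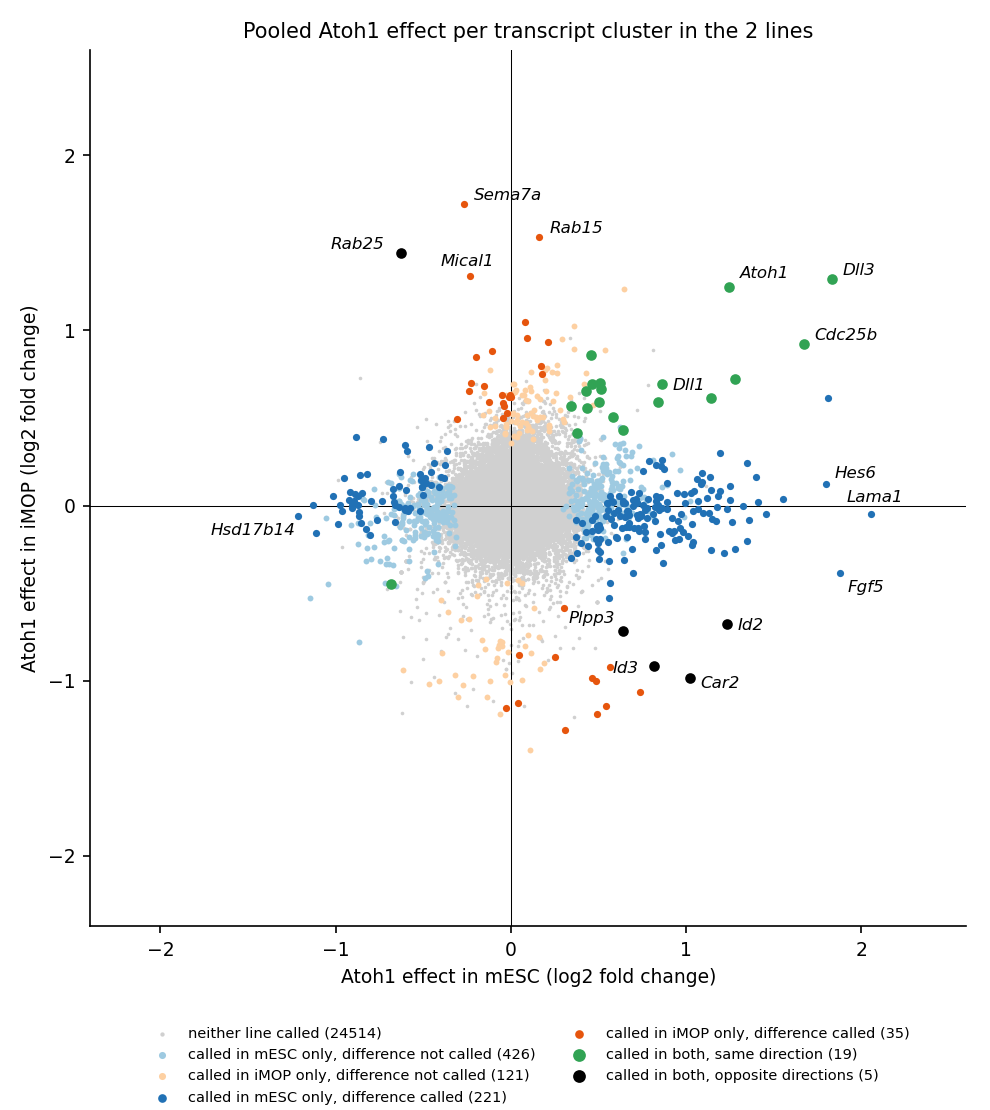
Pooled Atoh1 effect of each transcript cluster in mESC (x axis, log2 fold change) against iMOP cells (y axis, log2 fold change), coloured by whether it was called in 1 or both lines and whether the difference between lines was called. Of clusters called in 1 line, 221 in mESC and 35 in iMOP cells had a called difference and 426 and 121 did not, beside 19 called in both in the same direction (green) and 5 in opposite directions (black).

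The 18 genes higher in both lines included the Notch ligands Dll3 and Dll1 and the cell cycle phosphatase Cdc25b. Dll3, a divergent Notch ligand that acts within its own cell, lay at 5.70 to 6.21 (median 6.002) in mESC control arrays and 7.69 to 7.91 (median 7.80) in mESC Atoh1 arrays. In iMOP cells it lay at 5.004 to 5.99 (median 5.28) with control vectors and 6.597 to 6.88 (median 6.70) with Atoh1. The groups were apart in both lines, by 3.56-fold in mESC (adjusted p = 6.1e-09) and 2.45-fold in iMOP cells (adjusted p = 8.9e-06). Dll1, the ligand that activates Notch on neighbours, lay at 6.56 to 6.91 (median 6.76) in mESC control arrays and 7.24 to 8.04 (median 7.65) with Atoh1. In iMOP cells it lay at 5.97 to 7.44 (median 6.55) and 6.97 to 7.48 (median 7.30). The iMOP groups overlapped. The Dll1 change was 0.87 ± 0.16 in mESC (adjusted p = 0.0012) and 0.69 ± 0.16 in iMOP cells (adjusted p = 0.032), and the iMOP call was lost in 8 of the 24 fits that leave out 1 array, for example without p183AT replicate 2 (adjusted p = 0.11). A second, dimmer Dll1 cluster was not called in either line (adjusted p = 0.10 and 0.93).

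Cdc25b, the phosphatase that switches on cyclin-dependent kinases at entry into mitosis, was the only 1 of the 19 whose change also differed between lines. It lay at 7.10 to 7.44 (median 7.25) in mESC control arrays and at 8.85 to 8.99 (median 8.93) with Atoh1. In iMOP cells it lay at 6.68 to 7.11 (median 6.87) and 7.58 to 8.06 (median 7.79). Neither line's groups overlapped. The fold was 3.19 in mESC and 1.9 in iMOP cells, and the difference of the log2 changes was −0.75 ± 0.13 (adjusted p = 0.0024).

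The other genes higher in both lines covered synapse, cytoskeleton, signalling and chromatin proteins, with changes from 0.34 to 1.28 in mESC and from 0.41 to 0.86 in iMOP cells. Frrs1l, a partner of AMPA-type glutamate receptors, rose from a median of 4.76 to 6.05 in mESC and from 5.33 to 6.08 in iMOP cells (log2 changes 1.28 and 0.72). Chrnb1, the beta subunit of the muscle acetylcholine receptor, rose by 0.84 and 0.59. In iMOP cells its change was 0.08 with pAT and 1.10 with p183AT, and the groups overlapped. Ppp1r14a, an inhibitor of myosin phosphatase, rose by 0.46 and 0.86. Mycl, a Myc family transcription factor, rose by 0.59 and 0.51. Rcor2, a corepressor of the CoREST complex, rose by 0.43 and 0.56. Dusp4, a phosphatase that turns off MAP kinases, rose by 0.51 and 0.70. Heg1, St6gal1, Septin3, Serping1, Lzts1, Tlcd3b, Fbxl16 and Tgfb2 made up the rest. The single cluster lower in both lines carries the symbols Tnfsfm13, Tnfsf13 and Tnfsf12, so that the gene cannot be named (−0.68 in mESC and −0.45 in iMOP cells). Calls in both lines held in each of the 24 fits that leave out 1 array for 10 of the 19: Atoh1, Cdc25b, Chrnb1, Dll3, Frrs1l, Heg1, Mycl, Ppp1r14a, Rcor2 and Serping1.

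**Figure D2:**
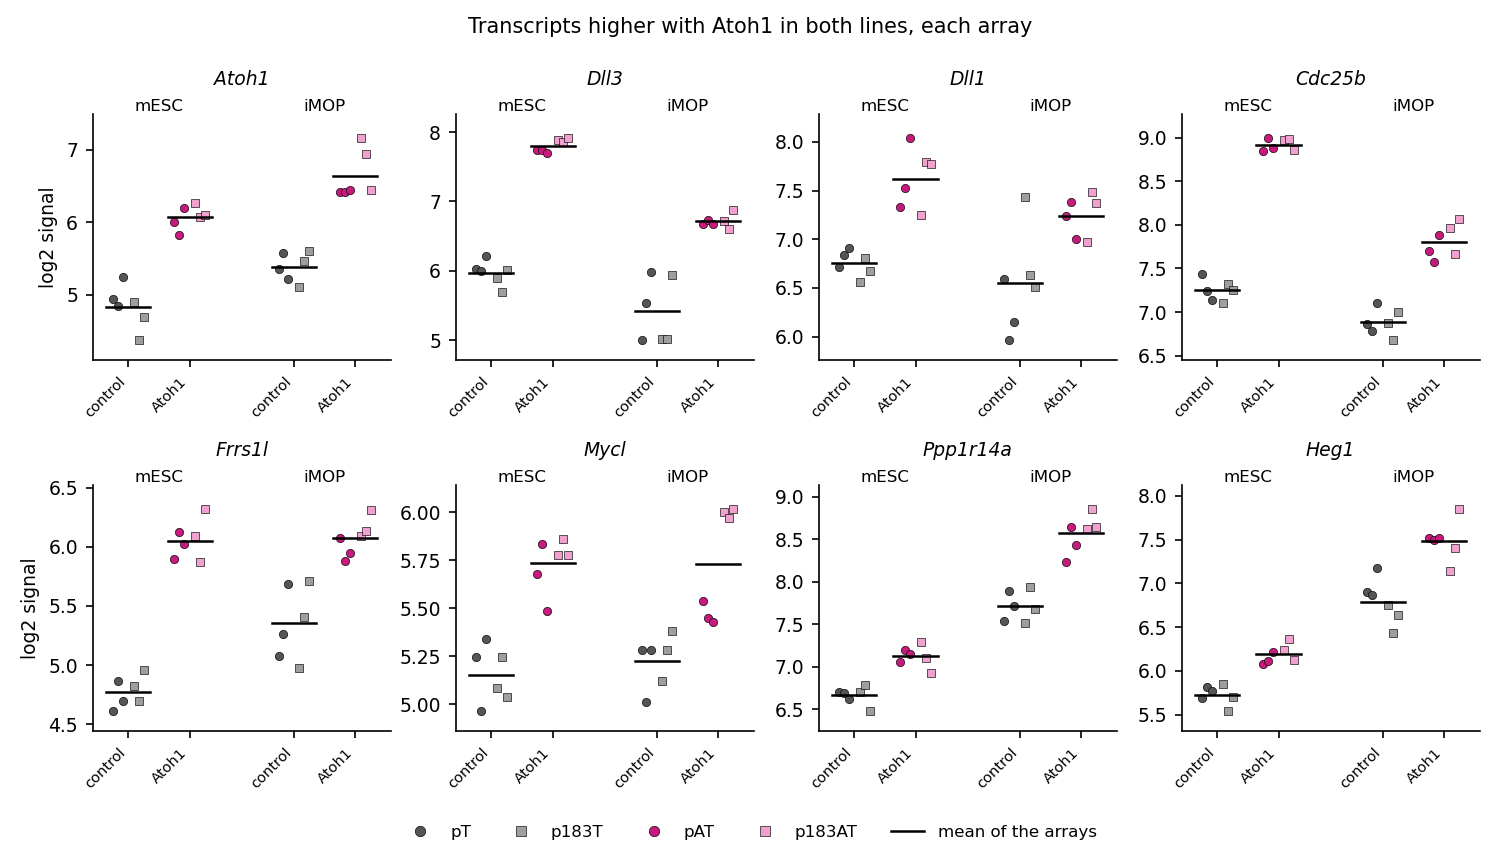
Log2 signal of 8 transcripts higher with Atoh1 in both lines, 1 point per array, with control vectors (pT, p183T) and Atoh1 vectors (pAT, p183AT) side by side for each line, and bars at the mean of the 6 arrays. Atoh1, Dll3, Cdc25b, Frrs1l, Mycl and Ppp1r14a are separated in both lines, whereas the iMOP groups of Dll1 and Heg1 overlap.

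A total of 5 genes moved in opposite directions: Id2, Id3, Car2 and Plpp3 were higher in mESC and lower in iMOP cells, and Rab25 was lower in mESC and higher in iMOP cells. Id2 lay at 8.58 to 9.31 (median 8.95) in mESC control arrays and at 9.77 to 10.49 (median 10.21) with Atoh1. In iMOP cells it lay at 6.77 to 7.41 (median 7.05) with control vectors and at 6.11 to 6.73 (median 6.40) with Atoh1. The groups were separate in both lines, on opposite sides. The change was 1.24 ± 0.14 in mESC (adjusted p = 3.6e-06) and −0.68 ± 0.14 in iMOP cells (adjusted p = 0.022). The difference of −1.91 ± 0.20 had an adjusted p of 3.8e-06. The iMOP call was lost without pAT replicate 1 (adjusted p = 0.092), p183T replicate 1 (0.066) or p183AT replicate 2 (0.082).

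Id3 followed the same pattern with more scatter. It lay at 5.33 to 6.62 (median 5.79) in mESC control arrays and 6.61 to 6.92 (median 6.78) with Atoh1. Its iMOP arrays lay at 7.21 to 7.93 (median 7.61) and 6.16 to 7.49 (median 6.599). Both pairs of groups overlapped slightly. The changes were 0.82 ± 0.20 (adjusted p = 0.027) and −0.92 ± 0.20 (adjusted p = 0.032), and leaving out 1 array ended the mESC call in 7 fits and the iMOP call in 8, up to adjusted p = 0.11 without mESC p183T replicate 1 and 0.12 without iMOP p183AT replicate 3. The difference of −1.74 ± 0.29 (adjusted p = 0.0012) held in all 24. Id1, the third member, rose in mESC from 5.92 to 6.61 (median 6.39) to 7.47 to 7.63 (median 7.54). Its iMOP arrays lay at 6.90 to 7.62 (median 7.12) and 6.83 to 7.52 (median 7.12), which overlapped almost wholly. Its difference was −1.26 ± 0.19 (adjusted p = 2.7e-04).

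Car2, a cytosolic carbonic anhydrase, lay at 8.97 to 9.41 (median 9.30) in mESC control arrays and at 10.09 to 10.37 (median 10.30) with Atoh1. Its iMOP arrays lay at 5.95 to 7.57 (median 6.50) and 5.10 to 6.07 (median 5.73), with a slight overlap. The changes were 1.02 ± 0.18 (adjusted p = 9.9e-04) and −0.98 ± 0.18 (adjusted p = 0.0061), and both held whichever array was left out. The iMOP call of Car2 was lost, however, when the 12 iMOP arrays were fitted alone. Plpp3, a membrane phosphatase of signalling lipids, changed by 0.64 ± 0.17 (adjusted p = 0.044) and −0.72 ± 0.17 (adjusted p = 0.048). The iMOP call was lost in 22 of the 24 fits and the mESC call in 15, so that its place among the 5 rests on the threshold, although the difference of −1.36 ± 0.24 (adjusted p = 0.0025) held in all.

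Rab25, a small GTPase of epithelial membrane recycling, had the largest difference of the 5. It lay at 6.52 to 7.05 (median 6.71) in mESC control arrays and at 5.91 to 6.52 (median 6.11) with Atoh1. Its iMOP arrays lay at 4.48 to 5.14 (median 4.91) and rose to 5.95 to 6.76 (median 6.18), near the level of mESC with Atoh1. The changes were −0.63 ± 0.12 (adjusted p = 0.0023) and 1.44 ± 0.12 (adjusted p = 6.6e-08), and both calls held without any 1 array. A wider count, which includes these 5, asks for an unadjusted p under 0.05 in each line, opposite signs and a called difference. It gave 70 of the 300 clusters with a called difference. Of the 70, 17 carried symbols of small nuclear, nucleolar or Cajal body RNAs. Since some clusters repeat the values of another, the 70 hold 62 distinct rows of values.

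**Figure D3:**
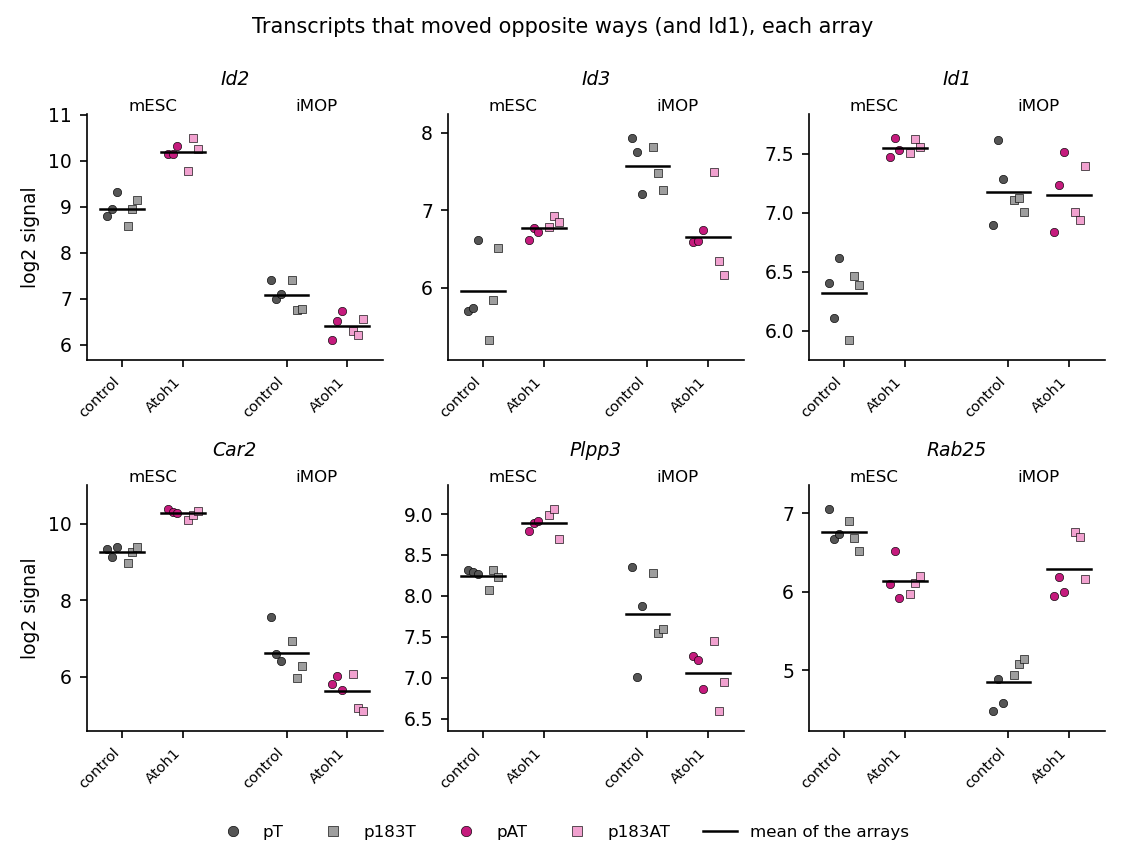
Log2 signal in each array for the 5 transcripts called in opposite directions and for Id1, with control and Atoh1 vectors side by side in each line and bars at the mean of the 6 arrays. Id2, Id3, Car2 and Plpp3 step up in mESC and down in iMOP cells, Rab25 does the reverse, and Id1 rises in mESC while its iMOP groups lie on each other (change −0.02).

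In mESC only, with a called difference between lines, 159 clusters rose and 62 fell. Lama1, the alpha chain of the first laminin of basement membranes, had the largest change of all called clusters in mESC. Its 3 untransfected mESC arrays lay at 7.26 to 7.503, above the control vectors at 6.005 to 6.40 (median 6.26), and the Atoh1 arrays lay at 7.90 to 8.59 (median 8.32). In iMOP cells every array was dim, at 4.15 to 4.402 with control vectors and 4.16 to 4.35 with Atoh1. The mESC change was 4.17-fold (adjusted p = 5.2e-13), and the difference was −2.11 ± 0.13 (adjusted p = 7.9e-10).

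Fgf5, the FGF ligand that marks primed epiblast, gave the largest difference between lines of all clusters tested. Untransfected mESC lay at 3.32 to 3.52, control vectors at 5.49 to 6.30 (median 5.66) and Atoh1 at 7.02 to 8.48 (median 7.57). In iMOP cells control vectors lay at 4.98 to 5.91 (median 5.22) and Atoh1 at 4.63 to 5.22 (median 5.004), which overlap. The change was 1.88 ± 0.19 in mESC (adjusted p = 4.2e-07) and −0.38 ± 0.19 in iMOP cells (adjusted p = 0.51), with a difference of −2.26 ± 0.27 (adjusted p = 1.8e-05). Hes6, a bHLH repressor that opposes Hes1 and favours neuronal differentiation, rose from 6.76 to 7.06 (median 6.83) to 8.47 to 8.93 (median 8.60) in mESC. In iMOP cells it was already at 8.24 to 8.60 (median 8.35) with control vectors and lay at 8.31 to 9.14 (median 8.40) with Atoh1. The difference was −1.68 ± 0.17 (adjusted p = 1.3e-06).

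Other leading rises in mESC were Trp53i11, a p53-induced gene (1.81), Zbp1, a sensor of nucleic acids (1.455), Tmem88b (1.41), the cadherin Cdh10 (1.398), Pxdc1 (1.36), the imprinted zinc finger gene Peg3 (1.35) and Lbh, a transcriptional cofactor (1.33). Snai2, a repressor of epithelial genes, rose by 1.28, from 6.30 to 6.62 (median 6.43) to 7.47 to 8.01 (median 7.70). For all of these the iMOP change missed the threshold, and was largest for Trp53i11 at 0.61 (adjusted p = 0.056). Among the falls with a called difference were Hsd17b14, a steroid dehydrogenase (−1.22), Tcl1, a coactivator of Akt (−1.11), Nr5a2, a nuclear receptor of naive pluripotency (−1.02), and Prdm14, a repressor that guards that state (−0.91). Slc15a1, a peptide transporter, Mok, Calcoco2, Gstm3, Mras, Septin1 and Lrrc2 fell by 0.91 to 0.99. The 24 leading mESC effects were kept in all 24 fits that leave out 1 array.

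Where these genes stood before transfection differed between lines. Of the 62 clusters that fell in mESC only with a called difference, 56 were above the dim limit in untransfected mESC, and 40 of those (71.4%) were dim in untransfected iMOP cells. Of the 159 that rose, 115 were above it in mESC and 56 of those (48.7%) were dim in iMOP cells. Over all clusters tested the share was 18.1%. Among clusters called in mESC only without a called difference it was 46.1% (147 of 319), so a high share was not particular to those with a called difference. Thus 59 of the 159 and 16 of the 62 were above the limit in both lines before transfection.

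In iMOP cells only, with a called difference, 23 clusters rose and 12 fell. Sema7a, a membrane-anchored semaphorin of axon guidance and immune cells, had the largest rise. Its iMOP control arrays lay at 5.26 to 5.83 (median 5.72) and its Atoh1 arrays at 6.70 to 7.96 (median 7.22), while mESC lay at 5.29 to 5.55 and 5.004 to 5.36. The iMOP groups were well apart, by 3.29-fold (adjusted p = 7.7e-10), and the difference was 1.99 ± 0.15 (adjusted p = 3.1e-08). The rise was 1.27 with pAT and 2.17 with p183AT.

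Rab15, a GTPase of endosome recycling in neurons, lay at 3.72 to 4.51 (median 4.25) in iMOP control arrays and 5.14 to 6.10 (median 5.82) with Atoh1. In mESC it was at 6.88 to 7.23 and 7.10 to 7.46. Its iMOP level with Atoh1 thus stayed below that of every mESC array, with a change of 1.53 ± 0.12 (adjusted p = 5.7e-08) against 0.16 in mESC. Mical1, an actin-oxidizing enzyme that acts downstream of semaphorin receptors, lay at 4.93 to 5.38 (median 5.08) and rose to 6.10 to 6.75 (median 6.35) in iMOP cells. In mESC it lay at 5.87 to 6.42 and 5.61 to 6.21, and its difference was 1.55 ± 0.15 (adjusted p = 1.5e-06). Cdkn1a, which makes the cyclin-dependent kinase inhibitor p21, rose in iMOP cells from 5.66 to 6.39 (median 5.91) to 6.68 to 7.22 (median 7.03). In mESC it stayed high, at 9.72 to 10.52 and 10.03 to 10.31. Its difference was 0.97 ± 0.20 (adjusted p = 0.0083).

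Coro2b, an actin-binding coronin, rose by 0.85 in iMOP cells, the photoreceptor cadherin Cdhr1 by 0.88, and Pde2a, a cyclic nucleotide phosphodiesterase, by 0.93. Robo2, the axon guidance receptor for Slit proteins, rose by 1.03 in iMOP cells (adjusted p = 0.0023), but its difference from mESC was not called (adjusted p = 0.24). Among the falls with a called difference were Emcn, an endothelial sialomucin (−1.16), and Plat, tissue plasminogen activator (−0.85). Emcn lay at 5.08 to 6.29 with control vectors and 4.17 to 4.75 with Atoh1, and was dim in mESC throughout. Of the 23 rises, 16 were above the dim limit in both lines before transfection.

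**Figure D4:**
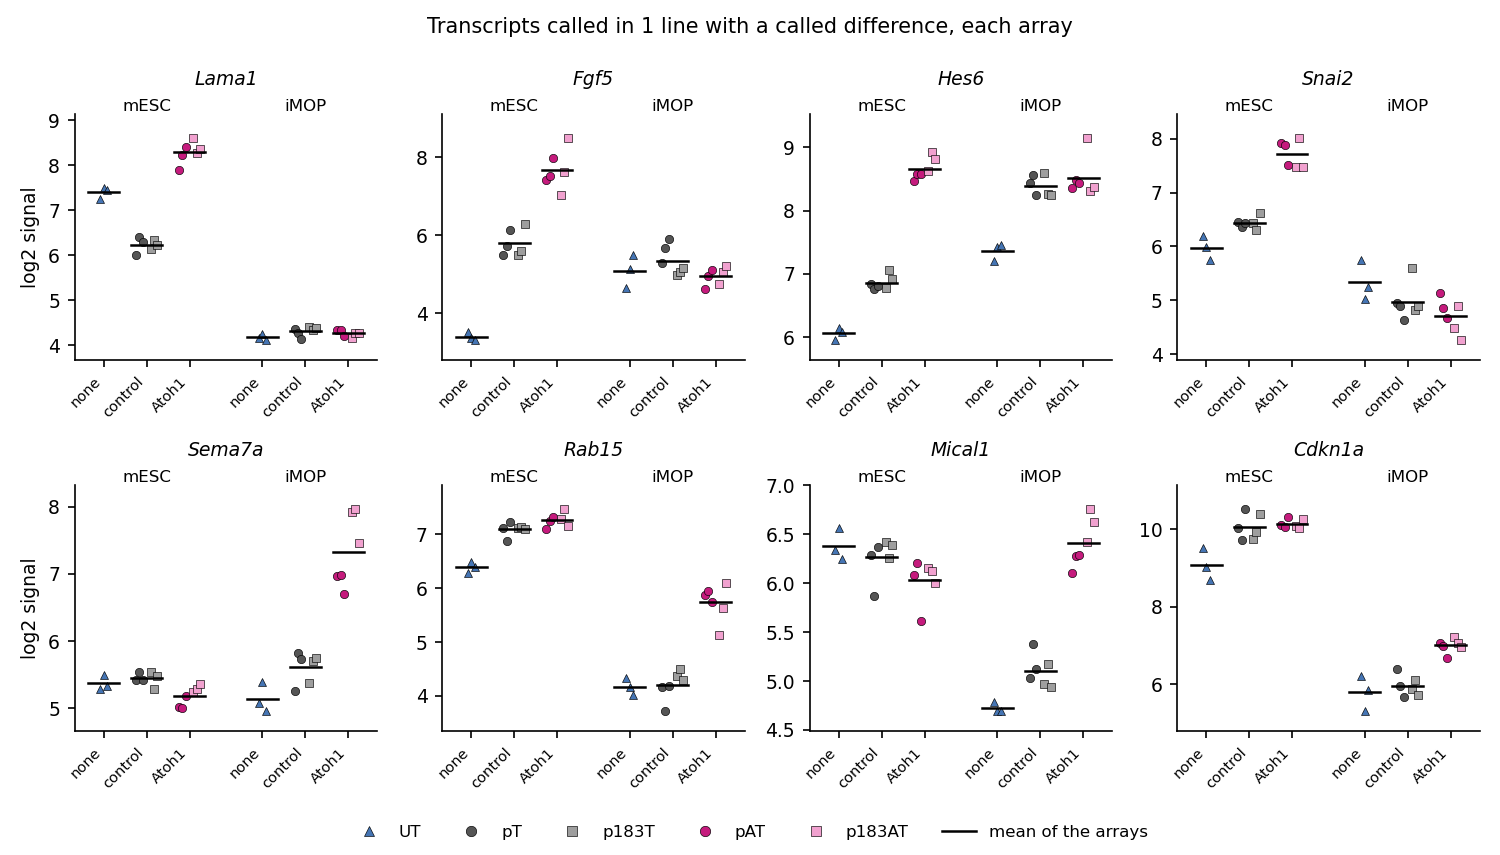
Log2 signal in each array for 4 transcripts called in mESC only (top) and 4 called in iMOP cells only (bottom), with untransfected cells (none), control vectors and Atoh1 vectors for each line and bars at the mean of 3 or 6 arrays. Lama1 is dim in all iMOP arrays, Hes6 in iMOP control arrays (8.24 to 8.60) overlaps mESC with Atoh1 (8.47 to 8.93), and Cdkn1a is higher in all mESC arrays than in any iMOP array.

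Of the 59 iMOP falls, 47 carried 1 symbol, and 17 of these had symbols of small nucleolar or Cajal body RNAs. Falls with several symbols, such as the cluster of Snora17 and Snhg7 (−0.92), were left out of that count. Over the 81 clusters with 1 such symbol, 17 were called lower and none higher in iMOP cells. Their median change was −0.62 against −0.004 over all clusters, and the list was drawn up after their values had been seen. The mean of these clusters lay at 9.02 to 10.34 in iMOP control arrays and 8.65 to 9.62 in iMOP Atoh1 arrays, with pT replicate 2 the highest at 10.34. In mESC it lay at 6.80 to 7.22 and 6.70 to 7.19, and none was called. Snora44 fell by 1.14 in iMOP cells relative to control vectors (adjusted p = 5.5e-04). Its untransfected iMOP arrays lay at 7.403 to 8.759, control vectors at 10.7 to 11.808 and Atoh1 at 9.184 to 10.658. The called Snora33 cluster lay at 7.188 to 7.558, 9.023 to 10.796 and 8.369 to 9.666 in the same order. For both, every Atoh1 array stayed above every untransfected array. The untransfected level of the 81 clusters as a set was not compared. Wdyhv1 carried a difference of −1.69 on 1 of its 2 clusters, and the other was called in neither line (adjusted p = 0.74 and 0.92). Without small RNA clusters and repeated rows, 30 clusters were called lower in iMOP cells.

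Related genes were then counted by list. The lists were chosen with earlier results of these data known, and each count stands against 1.59% higher and 1.06% lower in mESC and 0.477% and 0.233% in iMOP cells. Of 20 Notch ligands, receptors and modulators, 3 were higher and 1 lower in mESC (median change 0.13), and 4 were higher in iMOP cells (median 0.20). Beside Dll1 and Dll3, mESC raised Lfng, a glycosyltransferase that modifies Notch (0.64), whereas iMOP cells raised its relative Mfng (0.62) and the ligand Jag2 (0.66). Of these 3 only Lfng differed between lines by the test (adjusted p = 0.020). The median over all clusters was 0.014 in mESC. Of 10 Hes, Hey and Helt repressors, Hes6 alone was called in mESC and Helt alone in iMOP cells (0.77). The Helt change was 1.17 with pAT and 0.38 with p183AT. Hes1 and Hes5, which Notch activates directly, were called in neither (adjusted p from 0.062 to 0.955). Of 20 Id and BMP pathway genes, 3 were higher and 1 lower in mESC, and 2 were lower in iMOP cells. The 3 and the 2 were Id genes, and the mESC fall was the ligand Bmp7 (−0.42).

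Naive and core pluripotency genes fell in mESC, with 9 of 26 lower, none higher and a median change of −0.28. The 9 were Tcl1, Nr5a2, Prdm14, Sox15, Nr0b1, Fgf4, Tfcp2l1, Dppa3 and Zfp42. The core factors Pou5f1 (−0.02) and Nanog (−0.36, adjusted p = 0.089) were not called. In iMOP cells none was called, and the difference was called for 7 of the 26. Before transfection 18 were dim in iMOP cells and 2 in mESC. Of 20 genes of primed epiblast and neural entry, 7 were higher in mESC and none lower, with a median of 0.41, and none was called in iMOP cells. The difference was called for 4 (Fgf5, Fgf15, Pou3f1 and Cdh2). The 7 were Fgf5, Fgf15, Pou3f1, Cdh2, Sox11, Zic2 and Dnmt3a. Pou3f1, a POU factor of early neural cells, lay at 6.85 to 7.5 with control vectors and 8.01 to 8.68 with Atoh1 (change 1.09, adjusted p = 7.8e-07). Of these 20, 4 were dim in untransfected iMOP cells and 2 in untransfected mESC. The mean of the 7 defining mESC markers moved with these groups, from 8.39 to 8.60 with control vectors to 8.15 to 8.29 with Atoh1, with 8.91 to 9.003 in untransfected mESC, and 2 of the 7 were called. Its part in the result was not tested.

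Of 49 hair cell genes, 7 were called higher and 1 lower in iMOP cells, and 2 higher and 3 lower in mESC. The difference between lines was called for 5, higher in iMOP cells for Rab15, Rab25, Selenom and Mreg and lower for Srrm4. The 7 were Rab15, Rab25, Dll3, Nhlh1, Selenom, Myo6 and Jag2. Myo6, an unconventional myosin needed for hair bundles, rose by 0.68 (adjusted p = 0.033), and Calb2, a calcium buffer of inner hair cells, fell by 0.77 (adjusted p = 0.021). The list's medians were 0.03 in iMOP cells and 0.02 in mESC, and 36 of its genes were dim in untransfected iMOP cells and 29 in untransfected mESC. None of the 7 defining hair cell markers was called in either line. The list was compiled with the study in hand, so that its iMOP count is not independent evidence of direction.

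Of 56 axon guidance genes, 10 were called higher in mESC and 6 in iMOP cells, and none was called lower in either. The difference between lines was called for 8, of which 2 (Sema7a and Mical1) were higher in iMOP cells and 6 (Sema3c, Sema3e, Sema6a, Plxnc1, Slit3 and Efnb2) in mESC. In mESC they included the semaphorins Sema3c (0.70), Sema3e (0.89), Sema6a (0.89) and Sema6d (0.72), with Slit3 and the actin-oxidizing Mical2. In iMOP cells they were Sema7a, Sema3f (0.48), Sema6b (0.55), Robo1 (0.65), Robo2 and Mical1. No gene of the list was called in both. Of 37 genes of neuronal differentiation, 4 were higher in mESC (Onecut2, Srrm4, Ebf2 and Gap43) and 2 in iMOP cells (Elavl3 and St18). The difference was called for Onecut2, Srrm4 and Elavl3.

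Of 17 CDK inhibitor and growth arrest genes, mESC raised Cdkn1c, which makes the inhibitor p57 (0.78 ± 0.10, adjusted p = 8.1e-06), and Btg2 (0.59). In iMOP cells Cdkn1a (1.05 ± 0.14, adjusted p = 1.1e-04) and Gadd45g (0.89) were higher and Gas1, a Hedgehog coreceptor, was lower (−0.58). The difference between lines was called for Cdkn1a, Cdkn1c and Gas1, not for Btg2 or Gadd45g, and Gadd45g in mESC lay at 7.402 to 7.83 with control vectors and 8.01 to 8.53 with Atoh1 (adjusted p = 0.075). Cdkn1c differed by −0.75 ± 0.14 (adjusted p = 0.0032). Of 36 cell cycle and replication genes, Cdc25b and Ccnd2 were called in mESC and Cdc25b in iMOP cells, and the medians were 0.005 and 0.008.

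Interferon-stimulated genes were called in mESC, where 7 of 34 were higher (Zbp1, Gbp7, Oasl2, Irgm1, Irgm2, Ifit1 and Psmb8) and none lower. In iMOP cells none was called, and the difference was called for 3 (Zbp1, Gbp7 and Oasl2). Before transfection 27 were dim in iMOP cells and 22 in mESC. Extracellular matrix and integrin genes were called as Lama1, Lamb1, Col4a1, Itga1 and Itga3 higher and Nid1 lower in mESC, and as Lama5, Fn1, Itga7 and Mfap4 higher in iMOP cells, of 40. Mfap4 was not called in mESC, although it lay there at 5.307 to 5.729 with control vectors and 6.029 to 6.41 with Atoh1. The difference was called for 1 of the 40 with the higher effect in iMOP cells and for 3 with the higher effect in mESC. In mESC, 4 of 17 broader fibroblast genes were also higher (Tagln, Pdgfra, Acta2 and Twist1), but the difference between lines was called for none of the 17. Of 8 defining fibroblast markers none was called in mESC, and their mean was 4.24 to 4.42 with control vectors and 4.27 to 4.59 with Atoh1. The mESC had been grown on arrested fibroblasts and were sorted for red fluorescence. The part of fibroblasts in these rises was not tested.

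**Figure D5:**
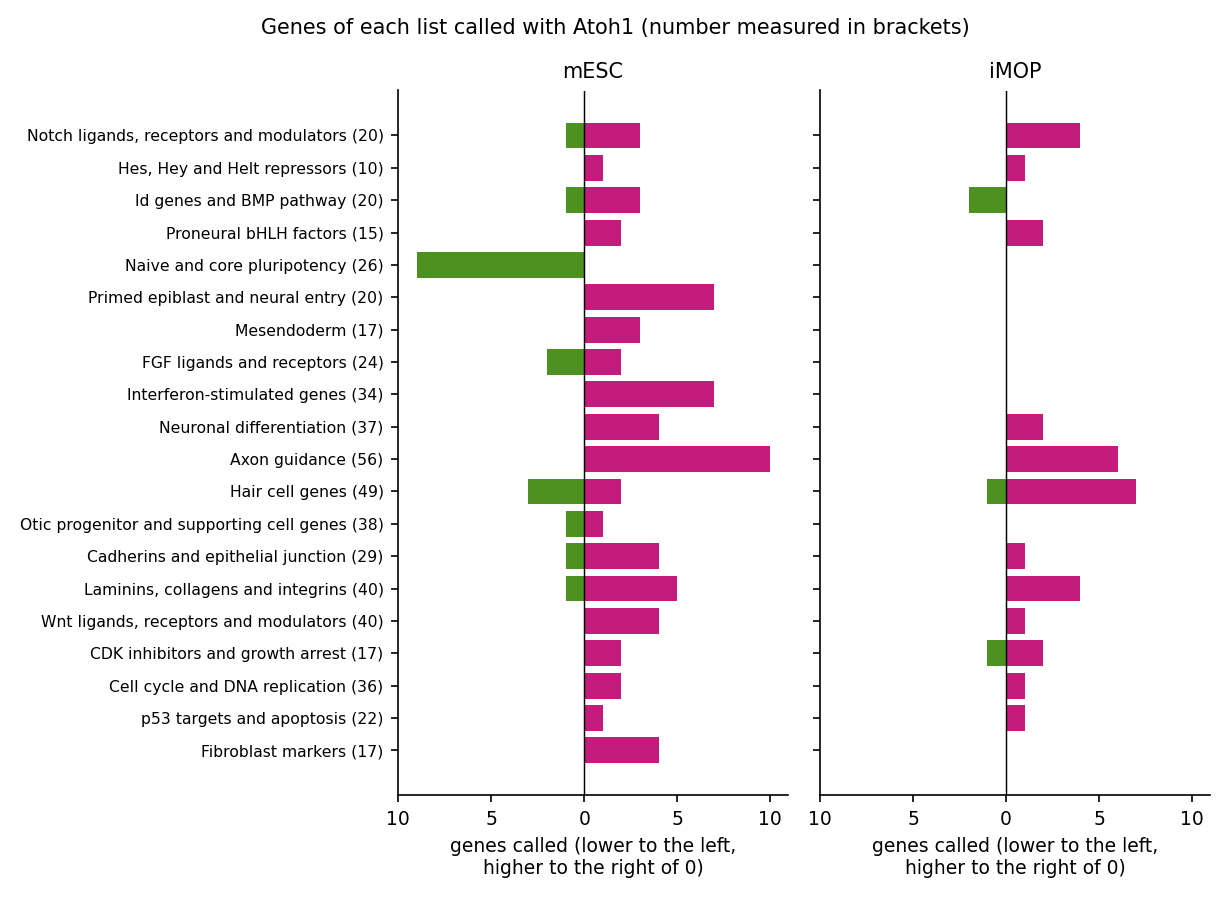
Number of genes of each list called higher (magenta, right of 0) and lower (green, left of 0) with Atoh1 in mESC and in iMOP cells, with the number measured in brackets. Pluripotency falls (9 of 26), primed epiblast rises (7 of 20) and interferon rises (7 of 34) were called in mESC, where the difference between lines was called for 7, 4 and 3 genes, hair cell genes have 7 rises in iMOP cells, and axon guidance has rises in both (10 and 6 of 56).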

How the data were processed

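The authors extracted total RNA (mirVana) from sorted fluorescent cells, hybridised 200 ng per sample to Affymetrix Mouse Gene 2.0 ST arrays with the WT PLUS kit, and deposited log2 values from robust multi-array average (RMA) normalization in Affymetrix Expression Console 1.4.1.46, per the submitters' processing notes. Whether RMA was run over all arrays or line by line is not stated in these sources. RMA equalizes the distribution of arrays processed together, so that a change shared by most transcripts would not be seen. Array data carry no read depth, and 3 arrays per group limit the precision. The labels call the replicates biological, without saying whether they came from separate passages or days.

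Genes were named from GEO's platform annotation: 23521 clusters carried 1 symbol, 1820 several and 16004 none. Group means of the 8 transfected groups were fitted in limma 3.58.1 (R 4.3.3) with lmFit, contrasts and eBayes, which shares 1 spread over 24 arrays (16 residual degrees of freedom), and p-values were adjusted by Benjamini-Hochberg over 25341 clusters. The fit was tested on simulated data. Clusters of a gene were kept apart, and Cdh2, Dll1, Ebf2, Fgf15, Heg1, Nid1, Snora33 and Wdyhv1 each had a further cluster that was not called. Dim means a mean below 5 on the log2 scale. A non-overlap means that the 6 Atoh1 arrays all lay above, or all below, the 6 control arrays.

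Named genes were the vector genes, all clusters called in both lines, the 12 highest and 12 lowest called effects per line without overlap and with 1 symbol, the 12 highest and 12 lowest called differences, genes the study named in both lines or in opposite directions, and up to 4 called members of each list by smallest p. Further members were named after their values were seen where all called members of a list are given. The members and the 29 lists were chosen with earlier results of these data known. Alternatives changed the arrays, blocking, filter, normalization, variance model, cluster choice, vector pair and test, and left out each array in turn.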

Additional observations from a re-analysis of the deposited data

Results flagged for a closer look

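The Atoh1 effect differed between the lines by the limma test of the difference itself (adjusted p under 0.05, iMOP minus mESC on the log2 scale) for 98 clusters in the positive direction and 202 in the negative direction. The named genes among them follow, and no explanation was tested.

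Negative differences, where the mESC effect was the higher, were −2.26 for Fgf5, −2.11 for Lama1, −2.01 for Car2, −1.91 for Id2, −1.74 for Id3, −1.68 for Hes6, −1.53 for Snai2, −1.50 for Zbp1, −1.36 for Plpp3, −1.26 for Id1, −0.75 for Cdc25b and −0.75 for Cdkn1c. Among small RNAs they were −1.68 for Snora44, −1.59 for Snora31 and −1.49 for Snora33, and 1 of the 2 Wdyhv1 clusters gave −1.69.

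Positive differences arose mainly from rises in iMOP cells for Rab25 (2.07), Sema7a (1.99), Mical1 (1.55), Rab15 (1.37), Coro2b (1.05) and Cdkn1a (0.97). Of these, Rab25 was also called lower in mESC (−0.63). For other genes the positive differences arose mainly from falls in mESC, as for Hsd17b14 (1.16), Gstm3 (1.11), Mreg (1.11), Nr5a2 (1.07) and Nr0b1 (1.04). Lgals9 gave 1.004 and Btbd35f12 gave 1.28. The calls of Btbd35f12 (adjusted p = 0.049) and Snora31 (adjusted p = 0.034) did not hold in every fit that left out 1 array.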

How the results depend on the processing

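No called effect of a named gene changed sign under any alternative run. Leaving out 1 array in turn gave 313 to 477 clusters higher and 168 to 304 lower in mESC, 67 to 305 higher and 19 to 171 lower in iMOP cells, 73 to 126 positive and 151 to 230 negative differences, 11 to 23 shared rises, 0 to 5 shared falls and 2 to 6 opposite calls. The fit of all 30 arrays called 92 lower in iMOP cells and 2 shared falls. Fits of 12 arrays of 1 line called 34 higher and 6 lower in iMOP cells, 10 shared rises, 0 shared falls and 2 opposite. Of the main calls these fits kept 9 of the 19 shared and 1 of the 5 opposite. Without dim clusters (10886 tested) iMOP cells had 207 higher and 109 lower, with 3 shared falls, and 1 cluster per symbol left 0 shared falls. pAT against pT alone, with fewer arrays, gave 126 and 63 in mESC, 20 and 5 in iMOP cells, differences of 19 and 43, 3 shared rises, 0 shared falls and 0 opposite. p183AT against p183T alone gave 200 and 81, 36 and 2, 18 and 55, 6, 0 and 0. The methods' one-way test after Benjamini-Hochberg gave 21 and 1 in iMOP cells, 5 shared rises, 0 shared falls and 1 opposite. At a fold of 1.5 and unadjusted p under 0.05 it gave 208 and 158 in mESC, 94 and 96 in iMOP cells, and 10 shared rises and 3 falls. With the same limits limma gave 210 and 164 in mESC, 95 and 123 in iMOP cells, differences of 244 and 409, and 11 and 5 shared. By these limits falls outnumbered rises in iMOP cells, unlike in the main fit. Added after seeing the data, leaving out iMOP pT replicate 2 and p183AT replicate 1 together gave 192 and 120 in iMOP cells, 2 shared falls and 9 opposite, and leaving out small RNAs and repeated rows gave 30 lower. The cause of these shifts in counts was not tested. Fits within a line and the methods' test give no difference.

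No source says that a replicate number marks a shared day or batch, and the arrays did not meet the rule that every same-numbered pair correlate above 0.1: deviations of same-numbered arrays correlated at r from −0.11 to 0.287 in mESC (mean 0.064, against −0.032 for other pairs) and −0.205 to 0.321 in iMOP cells (mean 0.103 against −0.051), with 9 of 18 pairs above 0.1 in each line. As a hint from the data, 6 of 12 mESC arrays and 8 of 12 iMOP arrays correlated best with their own number. With the replicate number as a block, 113 clusters were lower in iMOP cells, 2 were shared falls and 8 opposite, and all 19 shared and 5 opposite calls were kept.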

Other observations

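Some further gene lists had no or few calls. Their counts stand against 1.59% higher and 1.06% lower in mESC and 0.477% and 0.233% in iMOP cells over all clusters. Of 24 genes of unfolded protein, amino acid and heat stress and 19 of cholesterol synthesis, limma called none in mESC, in iMOP cells or for the difference. Of 30 cytosolic ribosomal protein genes, 1 was lower in mESC and none was called in iMOP cells. Of 38 otic progenitor and supporting cell genes, none was called in iMOP cells (median change −0.02), and 1 was higher and 1 lower in mESC. Of 40 Wnt ligands, receptors and modulators, 4 were higher in mESC, a larger share than over all clusters. In iMOP cells 1 was higher, and none was lower in either line.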
